A study of Mus musculus with 15 samples.

Results

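Retinoic acid (RA) is a diffusible lipid signal that embryonic tissues make from vitamin A. Retinol is oxidised to retinaldehyde, and retinaldehyde dehydrogenases of the Aldh1a family oxidise that to RA. Cellular RA-binding proteins (Crabp) carry RA in the cytoplasm, enzymes of the Cyp26 family break it down, and in the nucleus RA binds the receptors Rara, Rarb and Rarg, which sit on DNA with RXR partners at RA response elements. The 10 genes followed here are 3 enzymes of synthesis (Aldh1a1, Aldh1a2 and Aldh1a3), 2 of breakdown (Cyp26a1 and Cyp26b1), the 3 receptors and 2 binding proteins (Crabp1 and Crabp2). They were taken by name from the 28876 genes listed in the deposited table, and all 10 were among the 18553 that reached 0.5 reads-per-million (RPM) in at least 1 library and were tested.

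The libraries come from the aorta-gonad-mesonephros (AGM) region of C57BL/6 mouse embryos, the region in which hematopoietic stem cells (HSCs) emerge. Tissue around the dorsal aorta was divided into a dorsal part (AoD) and a ventral part (AoV) at embryonic day (E) 9.5 and at E10.5, and at E10.5 the urogenital ridges (UGR) were taken as well. This gives 5 groups of 3 libraries, named E9 AoV and E9 AoD for the earlier stage and E10 UGR, E10 AoV and E10 AoD for the later one. The labels name no treatment and no transgene, and embryos were pooled for each library, so no value belongs to a single embryo. Pools were made in separate experiments, but the labels do not tie a library to an experiment, so p-values measure the spread between these libraries.

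All libraries hold a mixture of tissues. The groups were compared for hand-written marker lists, given as summed RPM. Markers of coelomic epithelium and urogenital ridge summed to between 725 and 795 in E10 UGR and between 601 and 627 in E10 AoV, against 58.5 to 175 in the other 9 libraries. Somite markers summed to between 424 and 726 in AoD of both stages, against 70.4 to 150 elsewhere. Neural tube markers summed to between 219 and 433 in E9 AoD and to at most 83.2 elsewhere, and gut and liver endoderm markers to between 523 and 740 in E9 AoV and to at most 61.3 elsewhere. Endothelial markers were present in every library, between 265 and 597. Caudal progenitor markers summed to at least 8.21 at E9.5, with all 6 markers lower in E10 AoV than in E9 AoV. In E10 AoD, T alone carried the sum (33.9 ± 4.69 RPM, against 15.4 ± 1.25 in E9 AoD). The other 5 markers were lower in E10 AoD than in E9 AoD, as with Cdx4 at 0.0412 against 7.07 RPM and Tbx6 at 0.348 against 2.94 RPM. Germ cell markers summed to between 28.6 and 31.0 in E10 AoV and to at most 6.47 elsewhere, and erythroid markers varied within groups, from 1502 to 7075 in E9 AoV alone. Single markers were at 0 in a few libraries, with Wnt3a at 0 in 4, Msgn1 in 3, Cdx4 in 2, and Sox1 and Ttr in 1 each. For neural tube and coelomic markers the libraries of E9 AoD differed most among themselves. Replicate 3 had the highest neural tube sum and the lowest coelomic sum of the group (433 and 58.5), and replicate 2 had the reverse (219 and 152). Libraries of a group correlated across genes with Pearson's r between 0.993 and 0.997, at depths between 33.75 and 48.64 M (megareads).

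The RA response element is the DNA sequence through which the receptors act, and 2 of the genes followed here hold one just before a transcription start, a feature for which both are textbook RA targets. Promoters from RefSeq (GRCm38.p6, 250 bases before to 50 bases after each start) were found for 8 of the 10 genes. They were searched on both strands for a direct repeat with 5 bases between its half-sites, where each half-site was AGGTCA, or that with T as the third base, AGTTCA, or either of these begun with G, that is GGGTCA and also GGTTCA. Rarb and Cyp26a1 held the repeat, which was found in 32 of all 32851 promoters (0.0974%). The 150 bases before each start are shown 5′ to 3′ on the strand of the gene, with the repeat in capitals, because these are the elements by which 1 receptor and 1 breakdown enzyme can respond to the signal they serve. Both stretches were placed on the build of the deposited data (NCBIM37) by their only exact match, Rarb at chr14:17407991-17408140 on the minus strand and Cyp26a1 at chr19:37772148-37772297 on the plus strand.
Rarb: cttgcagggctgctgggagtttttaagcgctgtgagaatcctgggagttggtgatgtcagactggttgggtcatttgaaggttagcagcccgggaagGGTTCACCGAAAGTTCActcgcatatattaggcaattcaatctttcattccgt
Cyp26a1: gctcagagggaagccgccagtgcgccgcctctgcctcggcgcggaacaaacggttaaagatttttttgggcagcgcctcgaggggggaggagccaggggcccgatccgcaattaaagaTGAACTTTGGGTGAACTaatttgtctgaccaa

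The Rarb repeat lies on the strand of the gene, from base -53 to base -37 before the start, and reads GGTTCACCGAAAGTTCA. That of Cyp26a1 lies from base -32 to base -16 on the opposite strand, where it reads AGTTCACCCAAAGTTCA. The elements share 15 of 17 bases and differ by G1A and G9C, counted from 1 at the 5′ end of the repeat, with the base of Rarb first. The start shown for Rarb lies inside the annotated span of the gene (chr14:17263356-17651381), and the table gives 1 value per gene, so the values below sum over its promoters. A letter match says nothing of whether a receptor sat there in these tissues. The same half-sites with 1 base between them occurred in 0.222% of promoters and with 2 bases in 0.268%, in none of those of the 8 genes.

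Differences between groups are given as log2 fold changes on the scale log2(RPM + 0.1) with the standard error (SE) of the fit, which is the same for a gene in every comparison of 2 groups, and with a Benjamini-Hochberg adjusted p over all tested genes from limma. A gene was called when the adjusted p was below 0.05 and the log2 fold change at least 1 in size, a fold of 2. The same E10 AoV libraries enter 3 of the 6 comparisons, and the same E10 AoD libraries enter 3, so these comparisons are not independent of each other. Levels are in RPM, in the order of the replicate numbers, and are compared between genes only after division by exonic length.

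**Figure D1:**
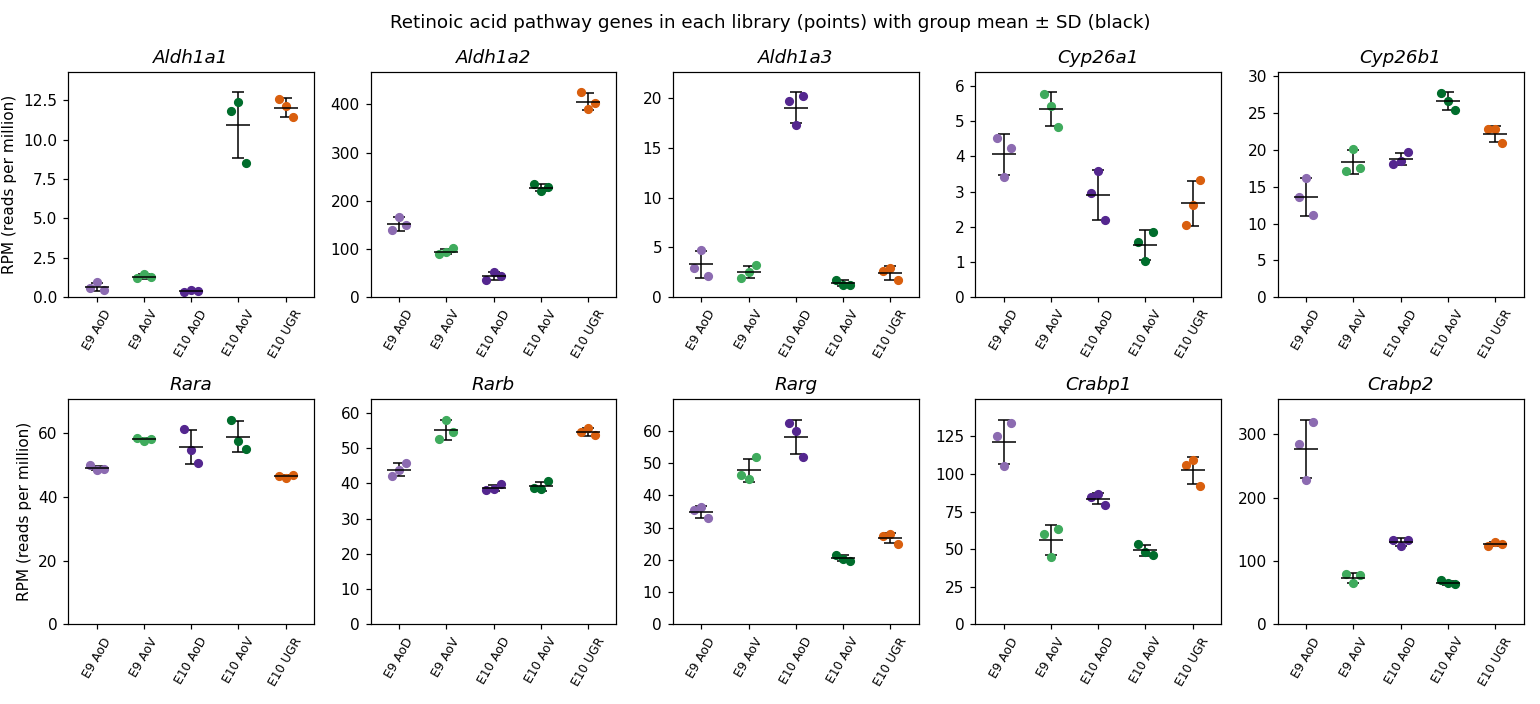
RPM of the 10 genes (y axes, each from 0) in the 5 groups of 3 libraries (x axes), with points for libraries and black bars for the mean ± SD. Aldh1a1 and Aldh1a2 were highest in E10 AoV and E10 UGR, Aldh1a3 and Rarg in E10 AoD, and Crabp2 in E9 AoD, while Rara stayed between 46.0 and 64.3 RPM in all 15 libraries.

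The synthesis enzymes had the widest spans of group means among the 10 genes. Aldh1a2 (ENSMUSG00000013584, chr9:71063596-71144050, plus strand), the enzyme that makes most of the RA of early mesoderm, was at 425, 391 and 402 RPM in E10 UGR and at 234, 220 and 228 RPM in E10 AoV. In E10 AoD it was at 34.7, 51.4 and 44.3 RPM. At E9.5 it was at 139, 167 and 150 RPM in AoD and at 90.2, 92.9 and 101 RPM in AoV. From the highest to the lowest, E10 UGR, E10 AoV, E9 AoD, E9 AoV and E10 AoD had ranges that did not overlap. With stage, Aldh1a2 rose in the ventral tissue (log2 fold change 1.26, SE 0.106, adjusted p = 2.25e-07) and fell in the dorsal tissue by 1.82 on the log2 scale (adjusted p = 4.62e-09). The ventral tissue thus passed from the lower to the higher level of the pair: AoV was 0.68 below AoD at E9.5 on the log2 scale (log2 fold change -0.68, adjusted p = 9.41e-05, less than a fold of 2) and 2.40 above it at E10.5 (5.29-fold, adjusted p = 4.43e-10). E10 AoV remained below E10 UGR (log2 fold change -0.84, adjusted p = 2.46e-05, also under a fold of 2), and E10 AoD was 9.44-fold below E10 UGR (log2 fold change -3.24, adjusted p = 2.2e-11).

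Aldh1a1 (ENSMUSG00000053279, chr19:20676451-20717952, plus strand), a second retinaldehyde dehydrogenase, had the widest span of the 10 genes, with a highest group mean 31.0 times the lowest. It was at 12.6, 12.1 and 11.4 RPM in E10 UGR and at 11.8, 12.4 and 8.52 RPM in E10 AoV. In the other 9 libraries it lay between 0.305 and 1.47 RPM. At E9.5 its level was 0.559, 0.94 and 0.466 RPM in AoD and 1.19, 1.47 and 1.26 RPM in AoV, and in E10 AoD it was 0.305, 0.48 and 0.38 RPM. At E9.5 it was higher in AoV than in AoD by 0.94 (adjusted p = 0.00165), just under a fold of 2, and this difference was called without E9 AoD replicate 2 (1.199) or E9 AoV replicate 1 (1.003). It rose from E9 AoV to E10 AoV by 2.95 (SE 0.207, adjusted p = 3.68e-08) and was 22.5-fold higher in E10 AoV than in E10 AoD (log2 fold change 4.49, adjusted p = 6.21e-10). E10 AoD was 25.1-fold lower than E10 UGR (log2 fold change -4.65, adjusted p = 3.23e-10). E10 UGR and E10 AoV overlapped in range and E9 AoD and E10 AoD did so too, so the order within these pairs is not set. The smallest of these levels stand only a few times above 0.0889 RPM, the worth of 3 reads in the shallowest library, and on the log2(RPM + 0.1) scale their folds are understated. Aldh1a1 is the one enzyme of the 3 with a close copy: 151 of its 2004 windows of 50 bases (7.53%) also occur in Aldh1a7, chosen for mention after its values were seen, with group means of 9.04 RPM in E10 AoV, 9.14 in E10 UGR, 2.01 in E10 AoD, 1.41 in E9 AoV and 0.965 in E9 AoD. Reads from shared windows were divided by the authors in proportion to unique reads, so the levels of Aldh1a1 carry that uncertainty.

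Aldh1a3 (ENSMUSG00000015134, chr7:73535778-73572403, minus strand), the third enzyme of RA synthesis, had its highest levels where the other 2 had their lowest group means. It was at 19.7, 17.3 and 20.2 RPM in E10 AoD, and the other 12 libraries lay between 1.23 and 4.76 RPM with overlapping ranges between all neighbours in the order of the means. The mean was 3.29 ± 1.34 RPM in E9 AoD and 1.41 ± 0.289 RPM in E10 AoV (SD, n = 3), with E9 AoV (2.56 ± 0.627) and E10 UGR (2.43 ± 0.658) between them. Aldh1a3 rose with stage in AoD by 2.57 (5.94-fold, SE 0.262, adjusted p = 1.07e-06). It was 12.8-fold lower in E10 AoV than in E10 AoD (log2 fold change -3.68, adjusted p = 4.32e-08) and 7.74-fold higher in E10 AoD than in E10 UGR (log2 fold change 2.95, adjusted p = 3.75e-07). In AoV the change with stage was -0.81 (adjusted p = 0.0205), under a fold of 2. That adjusted p rose to 0.0957 without E9 AoV replicate 3, to 0.0699 without E10 AoV replicate 2 and to 0.0682 without E10 AoV replicate 3, whereas array weights, which give less weight to variable libraries, brought the change to -1.04 and a call.

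Per kilobase of exonic length (RPM per kb) the 3 enzymes summed to 186 ± 7.84 in E10 UGR, 106 ± 3.10 in E10 AoV, 68.2 ± 6.56 in E9 AoD, 43.0 ± 2.61 in E9 AoV and 23.5 ± 3.51 in E10 AoD (SD, n = 3). Aldh1a2 made up between 94.7% and 98.5% of the sum in every group but E10 AoD, where its mean share was 81.3% ± 3.73. Aldh1a3 held 17.9% ± 3.79 there and at most 1.28% in the other groups. The share of Aldh1a1 was highest in E10 AoV at 5.01% ± 0.967, followed by 3.16% ± 0.131 in E10 UGR. Among the enzymes, then, Aldh1a2 was the main transcript in all groups, and the dorsal tissue at E10.5 was the group with the least of it and the most of Aldh1a3.

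**Figure D2:**
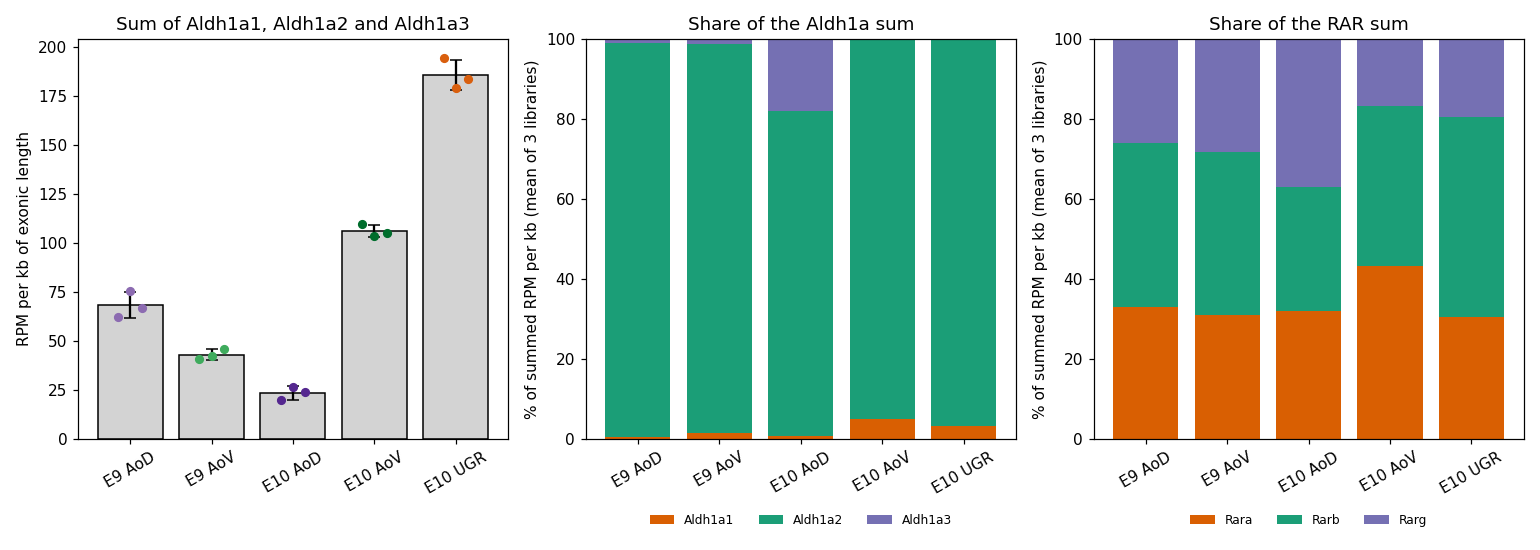
Left, summed RPM per kb of Aldh1a1, Aldh1a2 and Aldh1a3 in the 5 groups (bars, mean ± SD, with a point per library). Middle and right, mean percentage of each gene in the summed RPM per kb of the Aldh1a enzymes and of the 3 receptors. The sum was lowest in E10 AoD (23.5) and highest in E10 UGR (186), Aldh1a3 reached 17.9% of it in E10 AoD, and the share of Rarg ran from 16.8% in E10 AoV to 37.1% in E10 AoD.

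Tissue markers moved with these enzymes in part. Coelomic and urogenital marker sums were highest in E10 AoV and E10 UGR, the same pair in which Aldh1a1 and Aldh1a2 were highest. Of the single markers, Wt1, Nr5a1 and Emx2 had both groups on top. Pax2, Pax8 and Lhx1 were lower in E10 AoV (5.22, 7.73 and 4.80 RPM) than in E9 AoD (5.88, 9.82 and 12.5 RPM). Osr1 and Gata4 were lower in E10 UGR (15.8 and 64.0 RPM) than in E9 AoV (18.6 and 95.6 RPM). At E9.5 the sums lay in the direction opposite to Aldh1a2, lower in AoD (58.5 to 152) than in AoV (165 to 175), where Aldh1a2 was higher in AoD. That difference of the sums was carried by Gata4 (9.55 RPM in E9 AoD and 95.6 in E9 AoV), since 6 of the 8 markers had the higher mean in E9 AoD, Wt1 only just (39.5 and 39.3 RPM) and others such as Lhx1 by more (12.5 and 4.79 RPM). Within E9 AoD, the library with the most coelomic signal (replicate 2, sum 152) had the most Aldh1a1, Aldh1a2 and Aldh1a3 (0.94, 167 and 4.76 RPM). Replicate 1 (sum 103) and replicate 3 (sum 58.5) kept the order of the sums for Aldh1a1 and Aldh1a3 but not for Aldh1a2 (139 and 150 RPM). Without replicate 2 Aldh1a2 still fell from E9 AoD to E10 AoD, by 1.75 on the log2 scale, and Aldh1a3 rose by 2.87. Markers of neural crest and sympathoadrenal cells summed to between 249 and 305 in E10 AoD and to at most 135 elsewhere, so that this sum was highest where Aldh1a3 was. Hand2 was the exception among its 5 markers, at 46.7 RPM in E10 AoD and 89.1 RPM in E10 AoV. Somite marker sums were highest in E10 AoD as well (581 to 726), where Pax1 was at 299 RPM. Of the 6 somite markers only Pax1 and Pax9 were highest in E10 AoD. Meox1, Tcf15 and Myf5 were highest in E9 AoD and Tbx18 in E10 AoV. In pooled tissue, a difference in the number of cells of a type cannot be told apart from a difference in RNA per cell. The part of tissue makeup in these results was not tested.

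Of the enzymes that remove RA, Cyp26a1 (ENSMUSG00000024987, chr19:37772298-37776018, plus strand) was at 5.77, 5.43 and 4.83 RPM in E9 AoV and at 4.52, 3.41 and 4.25 RPM in E9 AoD. It was at 2.95, 3.59 and 2.18 RPM in E10 AoD, at 2.04, 2.63 and 3.32 RPM in E10 UGR and at 1.56, 1.02 and 1.86 RPM in E10 AoV. E9 AoV was thus the highest group and E10 AoV the lowest, and neither overlapped its neighbour in the order, while the ranges of the 3 groups between them ran into each other. It fell with stage in AoV by 1.82 on the log2 scale (3.53-fold, SE 0.222, adjusted p = 1e-05). In AoD the change was -0.49 (adjusted p = 0.0741). E10 AoV differed from E10 AoD by -0.94 (adjusted p = 0.00387) and from E10 UGR by -0.82 (adjusted p = 0.0118), both short of a fold of 2. The former was called without E10 AoD replicate 3 (-1.12) or E10 AoV replicate 3 (-1.11) and after quantile normalization (-1.01).

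Cyp26b1 (ENSMUSG00000063415, chr6:84521938-84543740, minus strand), which breaks down RA as well, ran the other way with small differences. It was at 27.8, 26.7 and 25.4 RPM in E10 AoV, at 22.9, 22.8 and 20.9 RPM in E10 UGR and at 18.1, 18.5 and 19.7 RPM in E10 AoD. The earlier stage had 17.2, 20.2 and 17.6 RPM in AoV and 13.6, 16.2 and 11.1 RPM in AoD. Only E9 AoV and E10 AoD overlapped among neighbours in this order. Between the groups compared, Cyp26b1 differed by 0.54 or less on the log2 scale (SE 0.106), and it was called in no comparison. Summed per kb, both enzymes lay between 5.25 ± 0.385 in E9 AoD and 7.00 ± 0.452 in E9 AoV, a narrow range beside that of the synthesis enzymes. Their split was less even at the later stage, when Cyp26a1 made up 12.6% ± 3.48 of the sum in E10 AoV, 23.7% ± 5.24 in E10 UGR and 28.5% ± 5.69 in E10 AoD, against 43.1% ± 3.01 in E9 AoV and 43.8% ± 7.57 in E9 AoD.

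The receptors behaved differently from each other. Rara (ENSMUSG00000037992, chr11:98789132-98836256, plus strand) had group means between 46.5 ± 0.458 RPM in E10 UGR and 59.0 ± 4.80 RPM in E10 AoV (SD, n = 3), and the highest mean was 1.27 times the lowest. Its log2 fold changes were 0.34 or less in size in all 6 comparisons, and it was not called. Rarb (ENSMUSG00000017491, minus strand), itself an RA target through the element shown above, was at 52.7, 58.1 and 54.6 RPM in E9 AoV and at 54.5, 55.7 and 53.6 RPM in E10 UGR. The level in E9 AoD was 42.2, 43.7 and 45.8 RPM, that in E10 AoV 38.7, 38.3 and 40.7 RPM, and that in E10 AoD 38.1, 38.5 and 39.7 RPM. Separate tiers are therefore seen, with E9 AoV and E10 UGR together on top, E9 AoD between, and both E10 aorta groups together at the bottom. Rarb differed between E10 AoV and E9 AoV by -0.49 (SE 0.0473, adjusted p = 9.63e-07), between E10 AoV and E10 UGR by -0.48 (adjusted p = 2.43e-06) and between E10 AoD and E10 UGR by -0.49 (adjusted p = 8.36e-07), all under a fold of 2. Between E10 AoV and E10 AoD the log2 difference was 0.02 (adjusted p = 0.82), with a sign that turned under quantile normalization (-0.01) and under median-of-ratios scaling (-0.01). Rarb therefore did not follow the order of Aldh1a2, which was over 5-fold higher in E10 AoV than in E10 AoD.

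Rarg (ENSMUSG00000001288, chr15:102065369-102087948, minus strand) was the receptor that moved most. It was at 62.3, 59.9 and 52.0 RPM in E10 AoD, 46.3, 45.0 and 51.9 RPM in E9 AoV and 35.5, 36.5 and 32.9 RPM in E9 AoD. E10 UGR had 27.4, 28.1 and 25.0 RPM and E10 AoV had 21.5, 20.4 and 19.7 RPM. No neighbours in this order overlapped, although E10 AoD and E9 AoV nearly touched (52.0 and 51.9 RPM). Rarg fell with stage in AoV by 1.21 on the log2 scale (2.32-fold, SE 0.0755, adjusted p = 1.16e-08) and was higher in E10 AoD than in E9 AoD by 0.73 (adjusted p = 1.29e-06, under a fold of 2). E10 AoV was 2.81-fold lower than E10 AoD (log2 fold change -1.49, adjusted p = 1.59e-09), and E10 AoD was 2.16-fold higher than E10 UGR (log2 fold change 1.11, adjusted p = 2.26e-08). Somite marker sums ran from 581 to 726 in E10 AoD and from 96.9 to 105 in E10 AoV, the same direction as Rarg. Of the 6 somite markers 5 lay in that direction, and Tbx18 lay in the other (34.0 RPM in E10 AoD and 64.2 in E10 AoV). At E9.5 all 6 had the higher mean in AoD, with sums of 424 to 455 in AoD and 70.4 to 89.8 in AoV. Rarg was higher in AoV there by 0.45 (adjusted p = 0.000195).

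Per kb the 3 receptors summed to between 29.8 ± 1.07 in E10 AoV and 41.1 ± 0.935 in E9 AoV, so that their total varied less than that of the synthesis enzymes. The split differed. Rarg made up 37.1% ± 1.52 of the sum in E10 AoD and 16.8% ± 0.299 in E10 AoV. Rara had the highest mean share in E10 AoV with 43.2% ± 2.04. In replicate 3 of that group Rarb was above Rara (42.4% against 41.2%), so their order there is not set. Rarb led in E10 UGR with 49.8% ± 0.253, in E9 AoD with 40.9% ± 1.57 and in E9 AoV with 40.8% ± 1.78.

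The binding proteins were highest in the dorsal tissue of the earlier stage. Crabp2 (ENSMUSG00000004885, chr3:87752588-87757298, plus strand), which hands RA to its receptors in the nucleus, was at 285, 228 and 319 RPM in E9 AoD. It was at 133, 123 and 134 RPM in E10 AoD and at 123, 130 and 127 RPM in E10 UGR, which overlapped. The lowest levels were 79.1, 64.6 and 77.9 RPM in E9 AoV and 69.4, 65.5 and 63.1 RPM in E10 AoV, which also overlapped. Crabp2 was 3.73-fold lower in E9 AoV than in E9 AoD (log2 fold change -1.90, SE 0.0998, adjusted p = 2.35e-09) and fell in AoD with stage by 1.08 on the log2 scale (adjusted p = 3.88e-07). At E10.5 it was lower in AoV than in AoD by a log2 fold change of -0.98 (adjusted p = 1.85e-06) and lower than in UGR by -0.94 (adjusted p = 4.64e-06), both just under a fold of 2. The former reached it without E10 AoD replicate 2 (-1.02) or E10 AoV replicate 1 (-1.01), after quantile normalization (-1.02) and after median-of-ratios scaling (-1.004).

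Crabp1 (ENSMUSG00000032291, chr9:54612555-54620917, plus strand), which binds RA in the cytoplasm, was at 125, 105 and 134 RPM in E9 AoD and at 106, 109 and 92.3 RPM in E10 UGR. It was at 84.8, 86.6 and 79.6 RPM in E10 AoD, 60.2, 44.8 and 63.1 RPM in E9 AoV and 53.5, 47.9 and 46.2 RPM in E10 AoV. As with Crabp2, both AoV groups were lowest and overlapped, as did E9 AoD and E10 UGR at the top. It was lower in E9 AoV than in E9 AoD by a log2 fold change of -1.12 (2.18-fold, SE 0.117, adjusted p = 1.82e-06) and lower in E10 AoV than in E10 UGR by -1.06 (adjusted p = 6.86e-06). Per kb, Crabp1 and Crabp2 summed to 361 ± 53.3 in E9 AoD and to 111 ± 7.15 in E10 AoV, and Crabp1 was the smaller part of the sum in the E9 AoD mean (42.0% ± 1.12) and the larger part in the other 4 group means (51.5% to 57.1%).

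Neural tube markers followed these proteins in the E9 AoD libraries. Replicate 3 had the highest neural sum of the group (433) and the most Crabp1 and Crabp2, and replicate 2 had the lowest (219) and the least. Leaving out replicate 3, the fall of Crabp2 from E9 AoD to E10 AoD was 0.97 and so no longer a fold of 2, while its log2 difference between E9 AoV and E9 AoD was -1.79. The call of Crabp1 between E9 AoV and E9 AoD was lost without E9 AoV replicate 2, the library with the lowest Crabp1 of its group (log2 fold change -0.97). Across E10.5 groups the order was another one, with neural sums of at most 7.84 in E10 UGR, where Crabp1 was at 92.3 RPM or more. The part of the neural tube in the E9.5 difference was not tested.

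**Figure D3:**
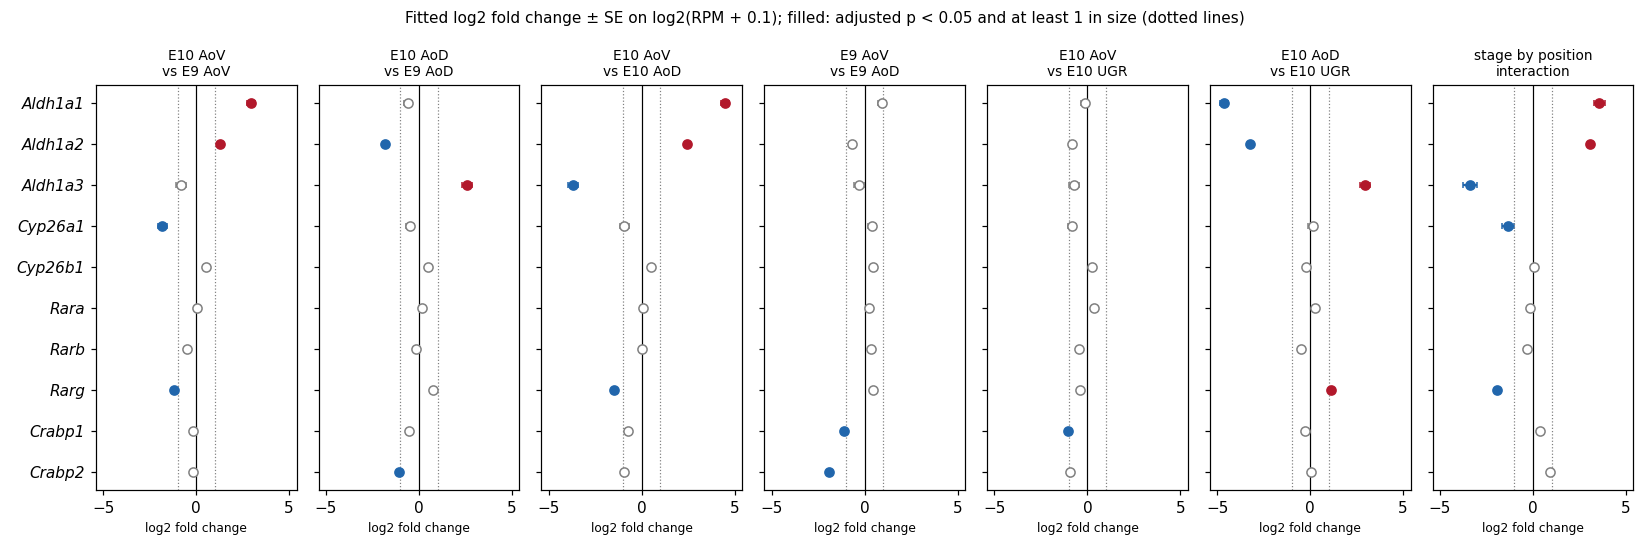
Log2 fold change ± SE of each gene (rows) in the 6 comparisons and in the interaction of stage and position (panels), on log2(RPM + 0.1). Filled points were called, red for higher and blue for lower, and the dotted lines mark a fold of 2. Aldh1a1 and Aldh1a2 lie right of 0 and Aldh1a3, Cyp26a1 and Rarg left of it both in E10 AoV against E10 AoD and in the interaction.

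Set beside all genes, the 10 genes, which were chosen with earlier results of these data known, were called as follows. With stage in AoV, 4 of 10 were called, against 11.0% of all tested genes (2 higher, against 6.04%, and 2 lower, against 4.99%). With stage in AoD, 3 were called, against 12.6% (1 higher, against 8.60%, and 2 lower, against 4.0%). Between E10 AoV and E10 AoD it was 4, against 10.1% (2 higher, against 5.81%, and 2 lower, against 4.29%). Between E9 AoV and E9 AoD it was 2, against 11.8% (none higher, against 8.32%, and 2 lower, against 3.47%). Of all genes called in that last comparison 70.6% were higher in AoV, a share that was 59.4% after quantile normalization. Between E10 AoV and E10 UGR Crabp1 alone was called, as lower, against 7.57% (3.84% higher and 3.73% lower). Between E10 AoD and E10 UGR 4 were called, against 11.3% (2 higher, against 4.76%, and 2 lower, against 6.56%). Cyp26b1, Rara and Rarb were called in none of the 6 comparisons. By the adjusted p alone, with no fold threshold, 7, 9, 8, 8, 8 and 6 of the 10 passed in the order of these comparisons, against 46.0%, 57.8%, 35.5%, 47.7%, 29.1% and 39.2% of all tested genes. Non-overlapping ranges were common in these data. In the same order, 7, 8, 8, 9, 8 and 8 of the 10 genes had them, against 55.0%, 60.7%, 49.5%, 51.3%, 48.6% and 50.9% of all tested genes. The median log2 fold change of the 10 was -0.17, -0.33, -0.37, 0.29, -0.60 and -0.10, where that of all tested genes lay between -0.05 and 0.02.

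The change with stage differed between ventral and dorsal tissue for 5 of the 10 genes, where 11.0% of all tested genes were called (2 positive, against 4.12%, and 3 negative, against 6.89%, and 7 by the adjusted p alone, against 28.1%). This interaction subtracts the log2 change with stage in AoD from that in AoV, so that a positive value marks a gene that gained on the ventral side relative to the dorsal. The values of Aldh1a1 and Aldh1a2 were positive, Aldh1a1 at 3.55 (SE 0.293, adjusted p = 6.61e-07) and Aldh1a2 at 3.08 (SE 0.15, adjusted p = 9.41e-09). Aldh1a3 was negative at -3.38 (SE 0.371, adjusted p = 9.33e-06), as were Rarg at -1.94 (SE 0.107, adjusted p = 2.26e-08) and Cyp26a1 at -1.33 (SE 0.314, adjusted p = 0.00508). For Aldh1a1, Aldh1a2, Aldh1a3 and Rarg the fitted changes with stage had opposite signs on the ventral and dorsal sides. The smaller change was under a fold of 2 for Aldh1a1 (-0.59 in AoD), Aldh1a3 (-0.81 in AoV) and Rarg (0.73 in AoD). That of Aldh1a1 is not set, since its E9 AoD and E10 AoD ranges overlapped. Its adjusted p of 0.0235 rose to 0.129 without E9 AoD replicate 2 and to 0.0974 without E10 AoD replicate 1. Without E10 AoD replicate 3 it was 0.0510. The negative value of Cyp26a1 came from a fall in AoV and a smaller change in AoD that missed the threshold. Crabp2 had a value of 0.92 (adjusted p = 0.00018) and Rarb one of -0.31 (adjusted p = 0.00271), both below 1 in size. Cyp26b1, Rara and Crabp1 had adjusted p-values of 0.798, 0.227 and 0.131. With the replicate number as a block within each stage, that of Crabp1 was 0.00129 for a value of 0.36, which is short of a fold of 2. Leaving out each library in turn, the 5 calls became 6 without E9 AoD replicate 2, when Crabp2 reached 1.06, and were 5 or 6 throughout.

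Around these genes, a list of 37 further genes of the pathway was written from general knowledge, with earlier results of these data known. Of these, 33 were tested. With stage 6 of the 33 were called in AoV (3 higher, 3 lower), against 11.0% of all tested genes, and 5 in AoD (2 and 3), against 12.6%. Between AoV and AoD 4 were called at E10.5 (3 and 1), against 10.1%, and 4 at E9.5 (2 and 2), against 11.8%, which is near the share of all genes. Against E10 UGR, 3 were called in E10 AoV (all lower), against 7.57%, and 6 in E10 AoD (1 and 5), against 11.3%. The interaction was called for 8 (6 and 2), against 11.0%.

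Upstream of the Aldh1a enzymes, Rdh10, which makes the retinaldehyde they use, was at 85.9 ± 3.32 RPM in E10 UGR and between 33.0 ± 1.31 and 45.3 ± 6.27 RPM in the other groups. It was lower than in E10 UGR both in E10 AoV (log2 fold change -1.24, SE 0.0839, adjusted p = 5.1e-08) and in E10 AoD (-1.38, adjusted p = 7.43e-09). Aldh1a2 was lower than in E10 UGR in both as well. Between E10 AoV and E10 AoD Rdh10 differed by 0.14 (adjusted p = 0.22), where Aldh1a2 differed by 2.40. Adh1, an alcohol dehydrogenase able to oxidise retinol, was at 43.8 ± 1.70 RPM in E10 UGR, 11.0 ± 1.73 in E10 AoV and 5.27 ± 0.176 in E10 AoD, and rose with stage in AoV by 1.61 (adjusted p = 6.41e-05). Dhrs3, which turns retinaldehyde back into retinol, rose with stage in AoD from 10.3 ± 2.67 to 23.5 ± 2.26 RPM (log2 fold change 1.21, adjusted p = 7.48e-06). The retinol carrier Rbp4 was at 49.9, 58.2 and 41.0 RPM in E9 AoV and at most at 1.88 RPM elsewhere, which is 5.06 above E9 AoD on the log2 scale (adjusted p = 8.41e-09). The libraries with Rbp4 are those with gut and liver endoderm markers (523 to 740), whose part in this was not tested.

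None of the 3 RXR partners and none of the 6 coregulators was called in any of the 6 comparisons or in the interaction by limma. By the adjusted p alone, 7 of the 21 values of the RXR genes and 9 of the 42 values of the coregulators passed. Of all tested genes, between 28.1% and 57.8% passed in the same tests. Rxra had group means from 81.2 ± 3.02 RPM in E9 AoD to 112 ± 2.65 in E10 AoV, and Rxrb lay between 62.3 and 67.1 in all group means. Rxrg was low, with group means from 0.744 to 1.66 RPM, and its log2 changes with stage of 0.82 in AoV (adjusted p = 0.0162) and 0.97 in AoD (adjusted p = 0.00447) passed the adjusted p but not a fold of 2.

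Of 12 genes widely used as RA targets, 11 were tested. With stage, 4 were called in AoV (2 higher, 2 lower), against 11.0% of all tested genes, and 4 in AoD (1 higher, 3 lower), against 12.6%, with median log2 fold changes of 0.06 and -0.04. The genes called as lower on both sides were Hoxb1 and Cdx1, early patterning genes. Hoxb1, which has RA response elements and patterns the hindbrain, fell from 26.4 ± 3.70 RPM in E9 AoD to 0.966 ± 0.109 in E10 AoD (-4.63 on the log2 scale, SE 0.194, adjusted p = 3.27e-10) and from 14.9 ± 2.09 in E9 AoV to 3.73 ± 0.883 in E10 AoV (-1.99, adjusted p = 1.04e-06). The caudal patterning gene Cdx1 fell as well, with log2 fold changes of -3.90 in AoD (adjusted p = 1.02e-09) and -1.94 in AoV (adjusted p = 1.03e-06). All 6 caudal progenitor markers were lower in E10 AoV than in E9 AoV, with Cdx4 at 4.14 RPM in E9 AoV and 0.0421 in E10 AoV. In AoD 5 of the 6 were lower at E10.5, as with Cdx4 (7.07 and 0.0412 RPM in E9 AoD and E10 AoD) and Wnt3a (2.67 and 0.0251 RPM). T went the other way, from 15.4 RPM in E9 AoD to 33.9 RPM in E10 AoD. The part of these markers in the fall of Hoxb1 and Cdx1 was not tested. Hoxd4 was called in AoD, where its level changed by -1.36 on the log2 scale (adjusted p = 6.58e-05), and not in AoV, and its interaction was 1.42 (adjusted p = 0.0023).

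At E10.5, some other targets went with the side on which Aldh1a2 was high, or with the opposite one. Nr2f2, an orphan receptor of veins and mesenchyme, was at 393 ± 17.7 RPM in E10 AoV, 365 ± 12.2 in E10 UGR and 139 ± 4.51 in E10 AoD (a 2.83-fold difference of the ventral from the dorsal tissue, adjusted p = 1.38e-10), and rose with stage in AoV by 1.04 (adjusted p = 3.39e-09). Its relative Nr2f1 rose with stage in AoV by 1.74 (adjusted p = 5.7e-11). At E9.5, when Aldh1a2 was higher in AoD, Nr2f2 differed between AoV and AoD by only 0.11 (adjusted p = 0.145). Nr2f1 was lower in AoV there (-0.83, adjusted p = 3.95e-08, under a fold of 2). Tgm2, a transglutaminase used as a readout of RA, was at 83.9 ± 5.26 RPM in E10 AoD and 38.8 ± 3.08 in E10 AoV (-1.11, SE 0.0994, adjusted p = 4.65e-07). It rose with stage in AoD by 1.63 (adjusted p = 6.83e-09), as Aldh1a3 did. At E9.5 Tgm2 was higher in AoV (65.7 ± 5.12 RPM) than in AoD (27.1 ± 4.12 RPM) by 1.28 (adjusted p = 9.06e-08). Aldh1a3 was not higher in AoV there (log2 fold change -0.30, adjusted p = 0.366). The interaction was called for 6 of the 11 targets, against 11.0% of all tested genes. It was positive for Hoxb1, Cdx1, Hoxd4, Nr2f1 and Nr2f2 (against 4.12%) and negative for Tgm2 (against 6.89%). Hoxb1 and Cdx1 fell with stage on both sides, more so in AoD, and Hoxd4 changed by 0.06 in AoV and by -1.36 in AoD. Their positive values thus came with a larger fall in AoD and not with a rise in AoV that was called. The median interaction over the 11 targets was 0.74 where that of all tested genes was 0.01.

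**Figure D4:**
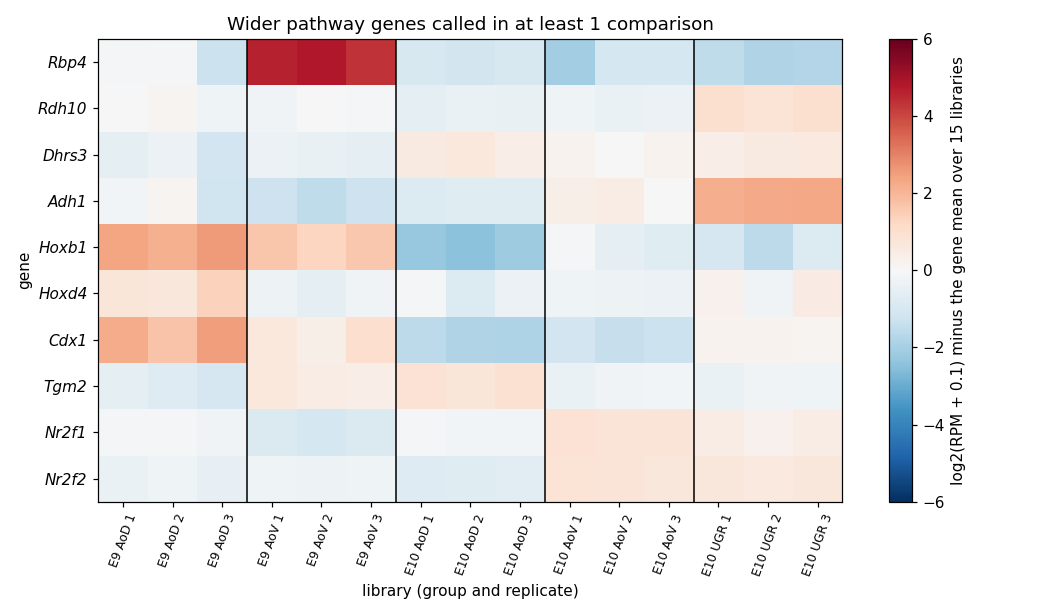
The further pathway genes called in at least 1 comparison (rows) in the 15 libraries (columns, by group and replicate), coloured by log2(RPM + 0.1) minus the mean of the gene over the libraries. Rbp4 stands out in the 3 E9 AoV libraries (41.0 to 58.2 RPM), Adh1 and Rdh10 in E10 UGR, and Hoxb1 and Cdx1 in the E9.5 groups.

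The genes whose levels ran most like those of 5 of the 10 genes were listed by Pearson's r over log2(RPM + 0.1) of the 15 libraries, as a description in which the libraries of a group count as separate points and the groups set most of the pattern. For Aldh1a1 these were Frmd4b (0.990), Nr2f2 (0.988) and Ccdc136 (0.986), where Nr2f2 is one of the targets above. For Aldh1a2 they were Gm16517 (0.968), Nlk (0.965) and Spry1 (0.961), and Spry1 was at 87.5 RPM in E10 UGR, 53.6 in E10 AoV and 26.5 in E10 AoD (group means). For Cyp26a1 they were Cdk18 (0.928), Cldn23 (0.906) and 2610039C10Rik (0.904), and for Rarb Marveld2 (0.971), Cobll1 (0.971) and Mreg (0.970). Marveld2 was at 12.6 and 12.4 RPM in E9 AoV and E10 UGR and at 2.17 to 3.27 RPM in the other group means. The groups on top were the same as for Rarb, and the span was wider. For Crabp1 they were Brd7 (0.942), Nrcam (0.941) and Fjx1 (0.941).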

How the data were processed

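RNA was measured in 15 libraries, 5 groups of 3 set by the labels. Per the methods of the study, pooled tissue was extracted with DNase treatment, libraries were made with TruSeq and read as single ends of 50 bases, and the authors mapped reads with TopHat and Bowtie 0.12.3 to the build NCBI37/mm9 and counted them over Ensembl genes with GeneProf, which divided reads matching several genes by the unique reads of each. The authors deposited these counts scaled to RPM, without adjustment for gene length. The authors' own comparisons, deposited as 6 columns of log2 fold changes and 6 of adjusted p-values from DESeq, were not used.

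Depth was inferred from the steps between low RPM values, because the table is in RPM. Only 55.6% to 58.4% of low values were whole multiples of a step, so whole reads could not be recovered and no count test was run. A level of 3 reads corresponds to 0.0617 to 0.0889 RPM, for counting error only.

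Genes that reached 0.5 RPM in 1 or more libraries were fitted by limma (version 3.58.1, under R 4.3.3) to log2(RPM + 0.1), as a model of group means for the 15 libraries in which variances were moderated by empirical Bayes along an intensity trend. The study's pools came from separate experiments, to which the labels tie no library, so replicate numbers were compared by the correlation of deviations from the group means. Between E9 AoD and E9 AoV all 3 same-numbered pairs exceeded 0.1 (0.19 to 0.452) and all other pairs were negative, so the numbers pair these libraries. Between E10.5 groups 2 of 3 pairs exceeded 0.1 in each combination, and between stages 2 of 18 did. Tests were two-sided with Benjamini-Hochberg adjustment over the tested genes. The script was tested on simulated data. Exonic lengths and positions come from GENCODE for NCBIM37. Alternatives were a pseudocount of 1 RPM, no filter, quantile normalization, median-of-ratios scaling, a replicate block over all libraries or within each stage (added after seeing the data, for comparisons within a stage and the interaction), array weights, no fold threshold and leaving out each library.

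The 10 genes, the wider list and the marker lists were chosen with earlier results of these data known. All 10 are named, as are genes of the wider list with a call in at least 1 of the 6 comparisons and the 3 most similar genes of Aldh1a1, Aldh1a2, Cyp26a1, Rarb and Crabp1. Rxra, Rxrb and Rxrg are named to illustrate a group without calls. Some genes of the wider list are not reported here and enter none of its counts.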

Additional observations from a re-analysis of the deposited data

Results flagged for a closer look

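For 5 of the 10 genes, the change with stage differed between ventral and dorsal aorta tissue by the interaction test itself. The log2 differences were 3.55 for Aldh1a1, 3.08 for Aldh1a2, -3.38 for Aldh1a3, -1.94 for Rarg and -1.33 for Cyp26a1. Aldh1a2 rose in AoV and fell in AoD, and Aldh1a3 rose in AoD with a change of -0.81 in AoV. Groups of 3 libraries are too small for a check of single outlying libraries.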

How the results depend on the processing

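Of 70 log2 values (10 genes in 6 comparisons and the interaction), all 70 kept their direction and call without the filter on low values, 69 with a pseudocount of 1 RPM, 67 after quantile normalization, and 68 each after median-of-ratios scaling and with array weights. With a replicate block over all libraries, all 70 values kept their call, and 4 and 3 of the 10 genes were called with stage in AoV and AoD, 4 and 2 between positions at E10.5 and E9.5, 1 and 4 against E10 UGR and 5 for the interaction. A replicate block within each stage, added after seeing the data, changed no call of the 50 values it covers and gave the same counts of 4, 2, 1, 4 and 5. Without the fold threshold, 7, 9, 8, 8 and 8 genes passed with stage in AoV and in AoD, between positions at E10.5 and at E9.5, and between E10 AoV and E10 UGR, where 4, 3, 4, 2 and 1 were called. Array weights left 1 call between positions at E9.5, losing Crabp1 (-0.94), and gave 5 calls with stage in AoV, gaining Aldh1a3 (-1.04). The count at E9.5 ranged from 1 (without E9 AoV replicate 2) to 3 (without E9 AoV replicate 1 or E9 AoD replicate 2). The interaction of Cyp26a1 was -0.98 with a pseudocount of 1 RPM, and so no longer called. Over all genes that pseudocount gave 1104, 1281, 1020, 1196, 735, 1143 and 1174 calls in the order of the report, against 2046, 2337, 1874, 2187, 1404, 2100 and 2044, and dropping the fold threshold gave 8537, 10730, 6587, 8846, 5405, 7282 and 5214. The log2 value of Rarb between E10 AoV and E10 AoD turned to -0.0136 after quantile normalization and to -0.01025 after median-of-ratios scaling. Without 1 library it ranged from -0.00973 (E10 AoV replicate 3) to 0.0342, that of Rara with stage in AoV from -0.0457 (E10 AoV replicate 1) to 0.0668, Aldh1a1 between E10 AoV and E10 UGR from -0.259 to 0.00866 (E10 AoV replicate 3), Cyp26a1 between E10 AoD and E10 UGR from -0.0510 (E10 UGR replicate 1) to 0.306, with a turn also without E10 AoD replicate 2 (-0.0413), and the interaction of Cyp26b1 from -0.0671 (E9 AoD replicate 2) to 0.204, none of them called. Levels under 0.0889 RPM cannot be told from 3 reads in the shallowest library.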
